A study of Mus musculus with 18 samples.

Results

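The comparison of F2 with F1 granule cells sets side by side the RNA of the ventral dentate granule cell layer from 2 consecutive generations of genetically wild-type males that descend from mice heterozygous for a deletion of Htr1a, the gene of the serotonin 1A receptor. It uses 4 of the 18 samples of the series, chosen by their labels: both F1 and both F2 libraries among the 6 samples with RNA-Seq counts per gene. F1 males were the wild-type sons of heterozygous mothers and heterozygous fathers. F2 males were born to F1 females mated with wild-type males, so their mothers were wild type and the heterozygous animal in the maternal line was a grandmother. The WT males came from a separate wild-type lineage bred in parallel, and their values are given only as a reference. All groups were Swiss Webster, an outbred stock, and were adult males of 8 to 12 weeks drawn from at least 3 litters. The layer was microdissected from frozen sections of the ventral hippocampus. How many animals went into a library is not stated, so p-values measure only the spread between these libraries, and generation, the genotype of the father and the genotype of the mother that bore and reared the males cannot be told apart here.

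Granule cells are the principal excitatory neurons of the dentate gyrus. They receive input from the entorhinal cortex and send mossy fibre axons to mossy cells and to pyramidal cells of field CA3. The ventral part of the gyrus is tied to innate fear and to stress responses, and granule cells carry the serotonin 1A receptor, which dampens their firing.

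Between 26358165 and 30946770 reads per F1 or F2 library were counted on genes. Counts were scaled to CPM, the reads of a gene per 1e6 reads of its library, with TMM factors, and 17421 of 34620 genes had enough reads to be tested. The median absolute difference in log2 CPM was 0.178 between the F1 libraries and 0.149 between the F2 libraries, and between 0.16 and 0.22 for F1 against F2, so the generations lay about as far apart as the F1 libraries from each other. Each library expressed Prox1, the transcription factor that fixes granule cell identity, at 228 and 283 CPM in F1 and 345 and 338 CPM in F2, and Calb1, the calcium buffer calbindin, at 265 and 306 CPM in F1 and 392 and 343 CPM in F2. Htr1a was detected in each library, at 49.3 and 55.1 CPM in F1 and 68.6 and 66.6 CPM in F2, with 62.2 and 55.7 CPM in WT. Both F2 libraries were above both F1 libraries for Htr1a, but the gene did not pass the threshold (log2 fold change 0.37 ± 0.12, q = 0.12). Here and below ± is the standard error of the log2 fold change with 2 libraries per group, a positive value means higher in F2, and q is the Benjamini-Hochberg adjusted p of edgeR's exact test over all genes tested.

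Of the 17421 genes, 129 differed between F2 and F1 at q under 0.01 (0.74%). F2 was higher for 53 of them (0.304%) and lower for 76 (0.436%). The changes were moderate, with a median absolute log2 fold change of 1.02, and 65 of the 129 genes changed at least 2-fold. Across all tested genes the median log2 fold change was -0.0015 and 8668 were positive, so the scaling left no general shift. All 129 had F1 and F2 libraries that did not overlap, a pattern shared by 39.1% of tested genes. At q under 0.05 the number was 230 (1.32%). The quasi-likelihood test of edgeR, which allows for uncertainty in each gene's own spread, called only Gm5148 and Gm8822 at q under 0.01 and 54 genes at q under 0.05, while 1506 genes by the exact test and 1570 by the quasi-likelihood test had an unadjusted p under 0.05. Without F2 replicate 1 the exact test called 52 genes, of which 15 of the 76 lower genes and 23 of the 53 higher genes remained, and without F1 replicate 2 it called 223. Called genes named below that are on no gene list and not among the 15 largest changes in either direction were picked after their values were seen.

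**Figure D1:**
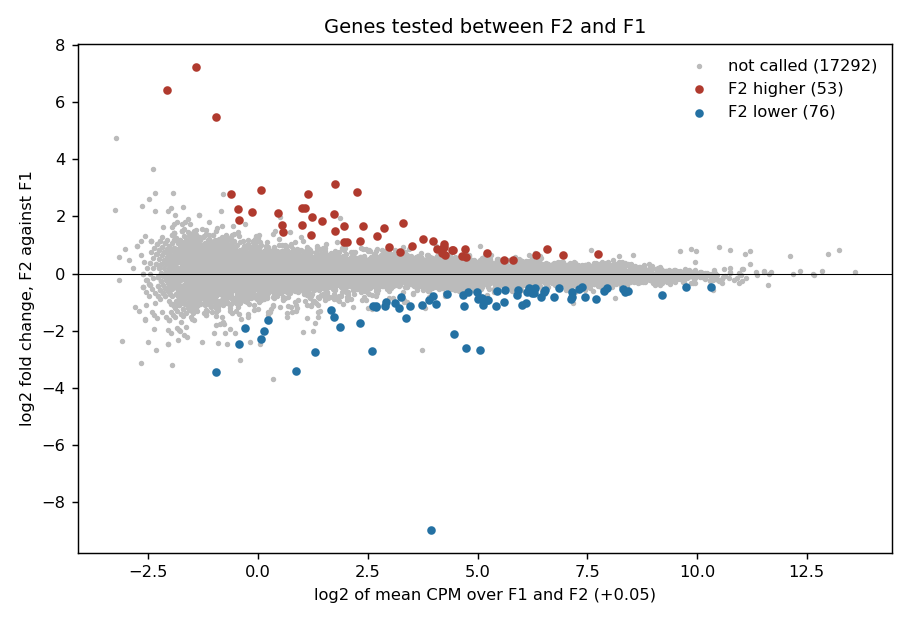
Each point is 1 tested gene, with the log2 of its mean CPM over the 4 F1 and F2 libraries on the x axis and its log2 fold change, F2 against F1, on the y axis. The 53 genes called higher in F2 (red) include many of low level, and the 76 called lower (blue) include more of middle and high level.

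The genes higher in F2 were on the whole weakly expressed in F1. Their median F1 level was 3.07 CPM, against 46.5 CPM for the genes lower in F2 and 15.8 CPM for all tested genes. Genes called higher in F2 are low in F1 by selection, and the reverse, so the calls fix part of this gap. The median log2 fold change was 1.30 for the higher and -0.90 for the lower genes. Pseudogenes made up 7 of the 53 higher genes (13.2%) and 1 of the 76 lower genes (1.32%), against 3.46% of the tested genes.

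Several well expressed genes of the synaptic vesicle and of regulated secretion, Sv2b, Syn2, Stx1a and Chgb, were lower in F2. Of 40 tested genes of vesicles and exocytosis, 3 were lower and 1 was higher in F2 at q under 0.01, against 0.436% and 0.304% of all tested genes. The list's median log2 fold change was -0.05, against -0.0015 over all genes tested. Sv2b, a glycoprotein of the vesicle membrane, was counted at 297 and 239.8 CPM in F1 and 114 and 174 CPM in F2, with 162 and 153 CPM in WT (log2 fold change -0.90 ± 0.17, q = 0.000122). The F2 level lay near that of WT and both F1 libraries stood above the other 4. Syn2, a synapsin that ties vesicles together in the reserve pool, gave 989.5 and 1013 CPM in F1 and 732 and 714 CPM in F2, with 775 and 709.5 CPM in WT (log2 fold change -0.47 ± 0.11, q = 0.00569). Stx1a, the plasma membrane SNARE protein syntaxin 1A, gave 115 and 108 CPM in F1 and 72.7 and 77.2 CPM in F2, with 91.9 and 81.1 CPM in WT (log2 fold change -0.57 ± 0.12, q = 0.000671). For all 3 genes the F1 libraries were the highest of the 6. Syt2, a fast calcium sensor for release, went the other way, with 10.6 and 9.07 CPM in F1 and 16.8 and 26.9 CPM in F2, with 13.9 and 12.1 CPM in WT (log2 fold change 1.15 ± 0.22, q = 7.58e-05). Both F2 libraries were above the other 4, although they differed from each other by more than the F1 libraries did.

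The most abundant member of the list, Snap25, the partner of syntaxin 1A in the SNARE complex, had 3730.4 and 3436 CPM in F1 and 2538 and 2882 CPM in F2 and did not pass (log2 fold change -0.40 ± 0.12, q = 0.0541). The vesicular glutamate transporter Slc17a7 had 1654 and 1529 CPM in F1 and 1288 and 1368 CPM in F2 (log2 fold change -0.26 ± 0.12, q = 0.494), and Slc17a6, the transporter typical of subcortical glutamatergic neurons, had 14.1 and 30.8 CPM in F1 and 37.8 and 50.4 CPM in F2 (log2 fold change 0.97 ± 0.28, q = 0.0411). Of the 40 genes, 20 had both F2 libraries below both F1 libraries, against 19.7% of all tested genes, and 8 had both above, against 19.4%. Summed over the list, the level was 20926 to 21521 CPM in F1, 18129 to 19099 CPM in F2 and 17822 to 18340.0 CPM in WT. The F2 and WT ranges overlapped and the F1 range stood above them. None of the 4 called genes kept its call in each fit that left out 1 F1 or F2 library. Sv2b lost it without F1 replicate 1 (q = 0.0224) or F2 replicate 1 (q = 0.081), with log2 fold changes of -0.74 and -0.62. Syn2 lost it without F1 replicate 1 (q = 0.0324), F1 replicate 2 (q = 0.0401), F2 replicate 1 (q = 0.229) or F2 replicate 2 (q = 0.167). The call of Stx1a ended without F1 replicate 1 (q = 0.0281), F2 replicate 1 (q = 0.204) or F2 replicate 2 (q = 0.025), and that of Syt2 without F1 replicate 2 (q = 0.0101) or F2 replicate 2 (q = 0.0746).

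Chgb, which encodes chromogranin B, a core protein of dense-core granules, was counted at 681 and 797 CPM in F1 and 378 and 488 CPM in F2, with 589.8 and 519.9 CPM in WT (log2 fold change -0.77 ± 0.14, q = 3.7e-05). It was the only called member of 29 tested neuropeptide and growth factor genes, and it is also on the list of CA field pyramidal neurons. Its neighbour Crls1, the cardiolipin synthase of mitochondria, starts 51586 bases after it on chromosome 2 and was also lower (90.9 and 79.9 CPM in F1 and 58.1 and 60.6 CPM in F2, log2 fold change -0.53 ± 0.12, q = 0.00229). Other called genes of the axon and its endings were Sh3gl2, the endophilin A1 of vesicle retrieval (389 and 364 CPM in F1 and 248 and 265 CPM in F2, log2 fold change -0.55 ± 0.11, q = 0.000409), and Stmn2, a tubulin-binding protein of growing axons (439 and 396 CPM in F1 and 244 and 298 CPM in F2, log2 fold change -0.62 ± 0.13, q = 0.000489). Both were lower in F2. Chgb lost its call without F2 replicate 1 (q = 0.0911), Crls1 without F1 replicate 1 (q = 0.0997), F2 replicate 1 (q = 0.304) or F2 replicate 2 (q = 0.0649), Sh3gl2 without F1 replicate 1 (q = 0.0206), F2 replicate 1 (q = 0.168) or F2 replicate 2 (q = 0.0134) and Stmn2 without F1 replicate 1 (q = 0.031) or F2 replicate 1 (q = 0.278).

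Genes whose transcription follows neuronal activity were represented by 2 called genes of 39 tested, both lower in F2. Of all tested genes 0.436% were called lower. Nr4a3, an orphan nuclear receptor induced by activity, gave 99.9 and 86.1 CPM in F1 and 56.6 and 60.6 CPM in F2, with 65.2 and 68.3 CPM in WT (log2 fold change -0.67 ± 0.12, q = 2.83e-05). Arc, which shapes synapses by removing AMPA receptors, gave 115 and 59.9 CPM in F1 and 40.5 and 41 CPM in F2, with 50.2 and 33.5 CPM in WT (log2 fold change -1.10 ± 0.24, q = 0.00188). The F1 libraries of Nr4a3 lay close together, whereas those of Arc differed by more than the group means did. F1 replicate 1 was also the highest of the 6 libraries for Fos (22 and 5.8 CPM in F1 and 7.33 and 6.65 CPM in F2), Egr2 (3.33 and 1.2 CPM in F1 and 0.86 and 0.705 CPM in F2) and Cyr61 (12.1 and 3.63 CPM in F1 and 3.81 and 2.97 CPM in F2), which did not pass. Without F1 replicate 1, Arc had a log2 fold change of -0.56, and its call ended without F1 replicate 1 (q = 0.229), F2 replicate 1 (q = 0.17) or F2 replicate 2 (q = 0.0781). Nr4a3 lost its call only without F2 replicate 1 (-0.61, q = 0.0575). Over the 39 genes the median log2 fold change was -0.11, with 10 below and 6 above without overlap, against 19.7% and 19.4% of all tested genes.

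Channels and receptors contributed few calls. Kcnq5, a subunit of the M-type potassium channel that limits repetitive firing, was the only called member of 48 potassium channel genes (107 and 77.6 CPM in F1 and 35.9 and 55.1 CPM in F2, with 57.5 and 56.9 CPM in WT, log2 fold change -1.02 ± 0.19, q = 3.21e-05), and lost its call without F1 replicate 1 (q = 0.0137) or without F2 replicate 1 (q = 0.0492). No gene passed among 18 NMDA, AMPA and kainate receptor subunits, 7 metabotropic glutamate receptors, 13 GABA-A receptor subunits or 29 sodium and calcium channel subunits. None of the 11 tested serotonin receptors passed either. Their log2 fold changes ran from -0.42 to 0.42, with Htr2c at 21.2 and 12.6 CPM in F1 and 25 and 17.7 CPM in F2, Htr4 at 12.2 and 17 CPM in F1 and 19.4 and 14.7 CPM in F2 and Htr6 at 4.95 and 4.86 CPM in F1 and 3.63 and 3.71 CPM in F2.

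Among receptors outside the lists, Mas1, the receptor of the peptide angiotensin (1-7), was lower in F2 (29.1 and 42 CPM in F1 and 16.6 and 15.6 CPM in F2, with 16.1 and 15.6 CPM in WT, log2 fold change -1.14 ± 0.18, q = 3e-07). The F2 and WT libraries lay within a narrow range and both F1 libraries stood above them. Its call held in each fit that left out 1 F1 or F2 library. Ghsr, the ghrelin receptor, was higher, with 0.264 and 0.81 CPM in F1 and 4.37 and 3.08 CPM in F2, with 3.32 and 2.75 CPM in WT (log2 fold change 2.78 ± 0.39, q = 6.63e-10). Its call held in the same fits, although its F1 level rested on 8 and 25 reads.

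None of the 34 collagens and laminins passed. Of the called genes given here, Pvrl3, Nbl1 and Chl1 were picked after their values were seen, while Cldn1 and Cldn22 came under the rule for the 15 largest changes. Pvrl3, nectin 3, an adhesion molecule of contacts between axons and dendrites, was lower in F2, with 59.4 and 58.8 CPM in F1 and 22.1 and 31.2 CPM in F2, with 41.7 and 41 CPM in WT (log2 fold change -1.15 ± 0.15, q = 3.72e-10). Nbl1, a secreted antagonist of bone morphogenetic proteins, was lower too, with 116 and 105 CPM in F1 and 57.4 and 67.4 CPM in F2, with 68.9 and 66.3 CPM in WT (log2 fold change -0.83 ± 0.12, q = 5.53e-08). Both kept their calls in each leave-one-out fit. Chl1, a neural adhesion molecule of the L1 family, was higher in F2, with 163 and 167 CPM in F1 and 269.6 and 257 CPM in F2, with 275 and 307 CPM in WT (log2 fold change 0.67 ± 0.12, q = 4.61e-06), and the F1 libraries were the lowest of the 6. It too kept its call. Cldn1, a tight junction claudin, was higher, with 1.16 and 1.2 CPM in F1 and 4.52 and 3.94 CPM in F2 (log2 fold change 1.84 ± 0.30, q = 1.2e-06), and Cldn22, another claudin, was lower, with 5.25 and 6.06 CPM in F1 and 1.12 and 1.93 CPM in F2 (log2 fold change -1.89 ± 0.31, q = 1.2e-06). Cldn22 has a near-identical copy, Cldn24, and its call was lost without F2 replicate 1 (q = 0.023). Of 24 tested clustered protocadherins, cell surface labels of single neurons, Pcdhb7 was higher in F2 (14.5 and 15.3 CPM in F1 and 22.3 and 24 CPM in F2, log2 fold change 0.63 ± 0.15, q = 0.00627). The median of that list was 0.26, and 14 of the 24 had both F2 libraries above both F1 libraries, against 19.4% of all tested genes. Pcdhb7 lost its call in each of the 4 leave-one-out fits, with q between 0.0149 and 0.193.

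The plots of single genes by library show the shapes these calls took.

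**Figure D2:**
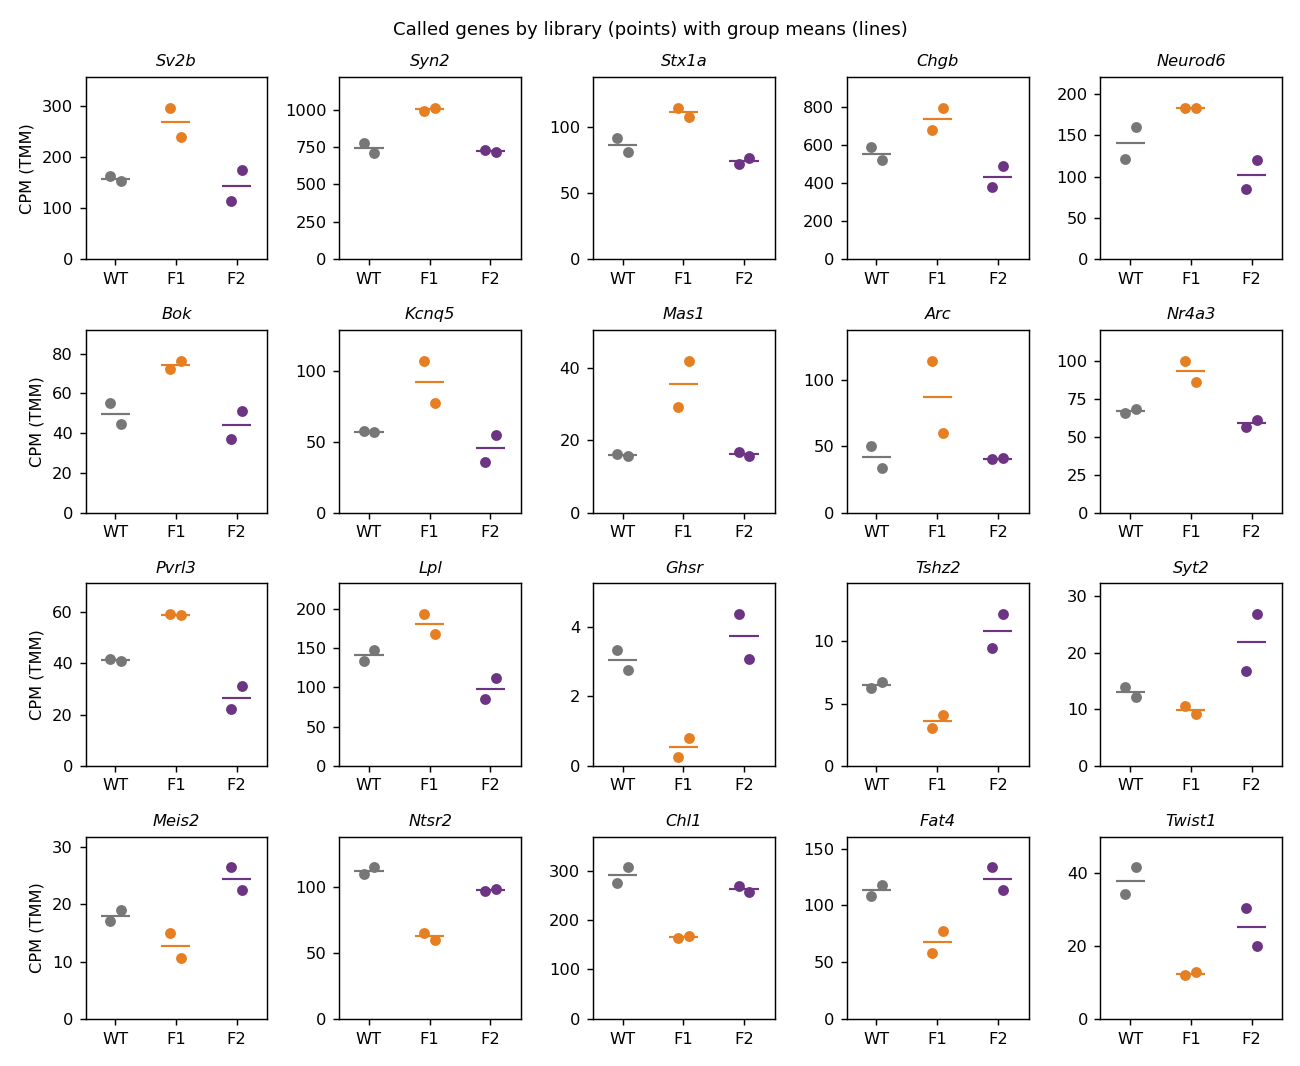
CPM of 20 called genes in the WT, F1 and F2 libraries, each panel with its own axis from 0; points are libraries and lines are means of 2. In the first 12 panels, such as Sv2b, Mas1 and Pvrl3, both F1 points lie above both F2 points, and in the last 8, such as Ghsr, Chl1 and Ntsr2, below them.

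Outside a family of satellite-like genes described below, 6 pairs of called neighbours lay within 1000000 bases of each other, of which 3 changed in the same direction and 3 in opposite directions. Chgb and Crls1 were both lower. Slc9a4 and Slc9a2, sodium/proton exchangers that lie 50980 bases apart on chromosome 1 (NCBIM37), were both lower in F2. Slc9a4 had 23.6 and 20.9 CPM in F1 and 9.87 and 11.6 CPM in F2, with 17.5 and 16.8 CPM in WT (log2 fold change -1.05 ± 0.17, q = 2.62e-07), and Slc9a2 had 22.3 and 14 CPM in F1 and 7.74 and 9.06 CPM in F2, with 21.5 and 17.8 CPM in WT (log2 fold change -1.11 ± 0.22, q = 0.000264). The first kept its call in each leave-one-out fit, and Slc9a2 lost it without F1 replicate 1 (q = 0.0432) or F2 replicate 1 (q = 0.132). Me1, the malic enzyme that supplies NADPH, and Prss35, a serine protease-like protein, lie 46486 bases apart on chromosome 9 and were both lower (Me1 -0.67, q = 0.000144, and Prss35 -1.14, q = 0.00496). Me1 lost its call without F1 replicate 1 (q = 0.0166) or F2 replicate 1 (q = 0.184), and Prss35 without F1 replicate 2 (q = 0.0843) or F2 replicate 1 (q = 0.669). In the other 3 pairs, Eln, the gene of elastin, was higher (0.76) and Stx1a lower (-0.57), 276240 bases apart on chromosome 5, Pla2g2f, a secreted phospholipase A2, was higher (2.29) and Nbl1 lower (-0.83), 324657 bases apart on chromosome 4, and Gm10654, with no reads in F1, was higher and Hapln4, a linker of hyaluronan and proteoglycans, lower (-0.81), 840542 bases apart on chromosome 8. Hapln4 lost its call without F2 replicate 1 (q = 0.0962).

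Several called genes encode transcription factors, in both directions. Tshz2, a zinc finger and homeobox protein, was higher in F2, with 3.07 and 4.08 CPM in F1 and 9.5 and 12.2 CPM in F2, with 6.24 and 6.72 CPM in WT (log2 fold change 1.60 ± 0.23, q = 1.21e-08), and its call held in each leave-one-out fit. Twist1, a basic helix-loop-helix factor of mesenchymal cells, had 12.1 and 12.8 CPM in F1 and 30.6 and 20.1 CPM in F2, with 34.2 and 41.8 CPM in WT (log2 fold change 1.03 ± 0.20, q = 7.51e-05), with F2 between F1 and WT. Meis2, a homeobox cofactor, had 15 and 10.6 CPM in F1 and 26.5 and 22.5 CPM in F2 (log2 fold change 0.94 ± 0.19, q = 0.000226). Twist1 lost its call without F2 replicate 1 (q = 0.116) and Meis2 without F1 replicate 2 (q = 0.0164) or F2 replicate 1 (q = 0.114). Neurod6, a neuronal factor of pyramidal neurons that was on the list of immature granule cells, was lower in F2 (183 and 183 CPM in F1 and 85.1 and 119.7 CPM in F2, with 121 and 159.7 CPM in WT, log2 fold change -0.84 ± 0.17, q = 0.000172), also without a call once F2 replicate 1 was left out (q = 0.15). Nr4a3, given above, and Trps1, a GATA-type repressor (55 and 63.1 CPM in F1 and 37 and 42.4 CPM in F2, log2 fold change -0.57 ± 0.14, q = 0.00479), were lower too, and Trps1 lost its call without F1 replicate 2 (q = 0.0861), F2 replicate 1 (q = 0.6) or F2 replicate 2 (q = 0.0235).

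The summed levels of markers of some other cells differed between the groups, but single genes carried much of the differences. The 18 markers of CA field pyramidal neurons summed to 2347 to 2571 CPM in F1, 1826 to 1966 CPM in F2 and 1828 to 2043 CPM in WT, so that both F2 libraries lay below both F1 libraries, and 11 markers of subicular and cortical neurons summed to 782 to 807 CPM in F1, 657 to 752 CPM in F2 and 662 to 693 CPM in WT. In the first list 10 of 18 log2 fold changes were positive, and in the second 5 of 11. The mean sum of the first list differed by -562 CPM between F2 and F1, of which -306 CPM came from Chgb. Without it the sum was 1665 and 1774 CPM in F1 and 1448 and 1479 CPM in F2, still without overlap. The difference for Dkk3, -96.1 CPM, was larger than that of the whole second list, -89.7 CPM, and without it the groups overlapped, at 537 and 485 CPM in F1 and 492 and 543 CPM in F2. In the first list Chgb and Bok were called lower. Bok, a pro-apoptotic relative of BCL2, had 72.5 and 76.5 CPM in F1 and 37.2 and 51.2 CPM in F2 (log2 fold change -0.75 ± 0.16, q = 0.000576). Dkk3, a secreted glycoprotein of the Dickkopf family, was called lower in the second (269.8 and 297 CPM in F1 and 165 and 209 CPM in F2, log2 fold change -0.60 ± 0.14, q = 0.00365). The median log2 fold change of the lists was 0.02 and -0.01, against -0.0015 over all genes. Bok lost its call without F1 replicate 2 (q = 0.0131) or F2 replicate 1 (q = 0.304), and Dkk3 without F1 replicate 2 (q = 0.0546) or F2 replicate 1 (q = 0.649). In layers cut from sections, fewer cells of a type and less RNA per cell cannot be told apart, and the part of these cells in the lower genes above was not tested.

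Leptomeningeal and fibroblast markers had positive values in F2. All 17 tested were positive, with a median log2 fold change of 0.51, and 1 passed at q under 0.01. Lum, the collagen-binding proteoglycan lumican, had 12 and 15.5 CPM in F1 and 24.1 and 21.5 CPM in F2, with 19.9 and 22.4 CPM in WT (log2 fold change 0.73 ± 0.17, q = 0.00451), and 2 more, Ptgds and Mgp, passed at q under 0.05. Ptgds, the prostaglandin D synthase of the meninges, had 237 and 342 CPM in F1 and 520.5 and 399 CPM in F2, and Mgp, matrix Gla protein, had 7.59 and 14.9 CPM in F1 and 23.7 and 19.8 CPM in F2. The sum over the list was 414 to 663 CPM in F1, 683 to 953 CPM in F2 and 543 to 619 CPM in WT. Without Ptgds, its most abundant member, the groups overlapped, at 177 and 321 CPM in F1 and 432 and 284 CPM in F2. F1 replicate 1 was the lowest for Ptgds, Mgp and Lum, and without it the log2 fold change of Lum was 0.55. Lum lost its call without F1 replicate 1 (q = 0.175), F2 replicate 1 (q = 0.346) or F2 replicate 2 (q = 0.0275). Twist1, Ogn, the proteoglycan osteoglycin (0.81, q = 0.00822), and Eln, which are known from connective tissue, were also higher. Ogn lost its call without F1 replicate 1 (q = 0.264), F2 replicate 1 (q = 0.229) or F2 replicate 2 (q = 0.0966), and Eln lost it in each of the 4 leave-one-out fits (q between 0.015 and 0.523). Their part in the meningeal sum, and its part in them, was not tested.

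Astrocyte markers were positive throughout as well, with smaller values. All 22 had a positive log2 fold change, with a median of 0.17, 11 had both F2 libraries above both F1 libraries, against 19.4% of all tested genes, and Ntsr2 passed, where 0.304% of all genes were called higher. Ntsr2, the neurotensin receptor of astrocytes, had 65.6 and 59.9 CPM in F1 and 97.2 and 98.7 CPM in F2, with 110.1 and 115 CPM in WT (log2 fold change 0.64 ± 0.12, q = 2.54e-05) and kept its call in each leave-one-out fit. Slc1a2, the main glutamate transporter of astrocytes, had 1463 and 1756 CPM in F1 and 1988 and 1696 CPM in F2, and Aldoc, an aldolase of astrocytes, 514 and 518 CPM in F1 and 598 and 534 CPM in F2, neither of which passed. The sum of the 22 markers overlapped between the groups, at 6383 to 7231 CPM in F1, 7057 to 7947 CPM in F2 and 5433 to 5555 CPM in WT. For granule cells themselves 17 of 20 markers were positive, with a median of 0.21. Of the 20, 10 had both F2 libraries above both F1 libraries, and none passed at q under 0.01. Stxbp6, a regulator of SNARE assembly, was the nearest (206 and 268 CPM in F1 and 422 and 301 CPM in F2, log2 fold change 0.61 ± 0.17, q = 0.0315). The sums of oligodendrocyte markers (2793 to 3672 CPM in F1, 2000.1 to 3582 CPM in F2 and 1455 to 2468 CPM in WT) and of interneuron markers (1734 to 2122 CPM in F1, 1837 to 1954 CPM in F2 and 1613 to 1697 CPM in WT) overlapped.

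**Figure D3:**
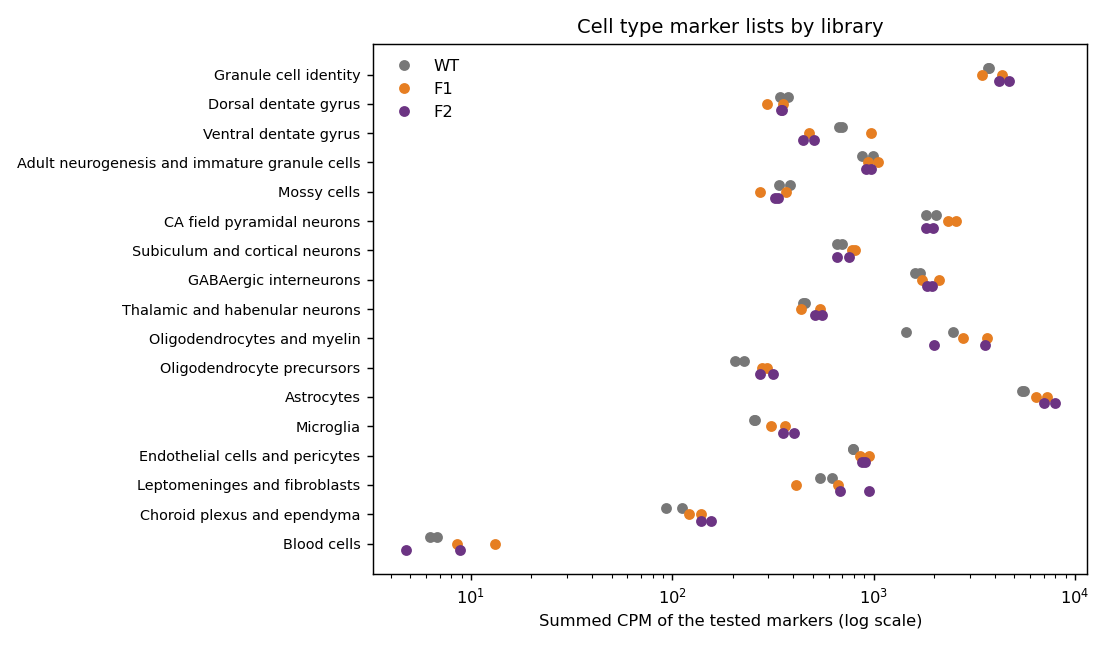
Summed CPM of the tested markers of each cell type in the 6 libraries, on a logarithmic axis. Both F2 libraries lie below both F1 libraries for CA field and for subicular and cortical neurons and above them for leptomeninges and for choroid plexus and ependyma, and the groups overlap for the other lists. Without 1 member each (Dkk3, Ptgds and Trpm3) the groups also overlap for subicular and cortical neurons, leptomeninges, and choroid plexus and ependyma, and without Chgb they remain apart for the CA field.

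Markers of the ventral dentate gyrus differed between the F1 libraries. The 8 markers summed to 480.4 to 969 CPM in F1, 445 to 509 CPM in F2 and 675 to 695 CPM in WT. Cpne7, a calcium-dependent membrane binding protein, had 272 and 117 CPM in F1 and 80.5 and 109 CPM in F2 (log2 fold change -1.04 ± 0.28, q = 0.0227), and Nnat, the imprinted gene of neuronatin, had 493 and 228 CPM in F1 and 173 and 219.9 CPM in F2 (log2 fold change -0.88 ± 0.25, q = 0.0462). F1 replicate 1 was the highest library for both, and F1 replicate 2 lay close to F2. Of the 8 markers 5 were positive, with a median of 0.10. Cpne7 and Nnat had both F2 libraries below both F1 libraries, and Trhr, the receptor of thyrotropin-releasing hormone (9.8 and 6.31 CPM in F1 and 14.2 and 11.4 CPM in F2, log2 fold change 0.67 ± 0.24, q = 0.224), and Tox3, a chromatin protein, had both above. No marker of the list passed at q under 0.01. The 8 dorsal markers summed to 295 to 356 CPM in F1, 348 to 352 CPM in F2 and 344 to 377 CPM in WT.

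Outside the cell type lists, pathways showed many small values in 1 direction with few or no calls. All 32 heat shock proteins and chaperones had a negative log2 fold change, with a median of -0.25, and 25 had both F2 libraries below both F1 libraries, against 19.7% of all genes, but none passed. Hsp90aa1, the inducible cytosolic HSP90, had 787 and 719 CPM in F1 and 545 and 619 CPM in F2 (log2 fold change -0.37 ± 0.12, q = 0.0966), and Hspa8, the constitutive HSP70, had 618 and 566 CPM in F1 and 424 and 491 CPM in F2 (log2 fold change -0.37 ± 0.14, q = 0.209). The sum of the list was 7351 to 7367 CPM in F1, 5806 to 6401 CPM in F2 and 5866 to 7914 CPM in WT. WT replicate 2 lay within the F2 range and WT replicate 1 above both F1 libraries.

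Genes of antigen presentation had a median of -0.41, with 18 of 22 negative and none past q under 0.01. B2m, the shared light chain of MHC class I, had 56.9 and 71 CPM in F1 and 49.5 and 48.3 CPM in F2 (log2 fold change -0.39 ± 0.16, q = 0.386). H2-Eb1, a class II chain, had 1.25 and 6.15 CPM in F1 and 0.673 and 1.15 CPM in F2 (log2 fold change -2.02 ± 0.57, q = 0.0471), where F1 replicate 2 alone stood high. Interferon response genes had a median of -0.28, with 31 of 37 negative and none called, and F1 replicate 2 was again the highest for the GTPases Igtp (1.68 and 5.51 CPM in F1 and 1.38 and 1.45 CPM in F2) and Gbp2 (2.11 and 10.1 CPM in F1 and 3.1 and 2.26 CPM in F2).

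Energy and protein metabolism showed smaller medians. Nuclear-encoded respiratory chain genes were negative for 66 of 75 (median -0.12), proteasome subunits for 33 of 35 (median -0.09) and cholesterol synthesis genes for 19 of 25 (median -0.16), while ribosomal protein genes were positive for 72 of 77 (median 0.11). None of these passed. The respiratory chain sum overlapped, at 12065 and 10527 CPM in F1 and 10112 and 10865 CPM in F2. The ribosomal sum overlapped too, at 10926 and 9472 CPM in F1 and 10735 and 11387 CPM in F2. Both F2 libraries lay below both F1 libraries for 10 respiratory chain, 13 proteasome and 15 cholesterol genes, against 19.7% of all tested genes. Both lay above for 22 ribosomal genes, against 19.4%. Circadian clock genes were positive for 18 of 22 (median 0.17) and none passed.

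Lipid genes gave no call in the 4 lists that the study named. The lists held 37 distinct tested genes, which the study chose partly on these samples as changed in both F1 and F2 against WT. They are therefore not independent evidence of a direction, and the choice itself favours few calls between F2 and F1. Of the 37 genes, 1 had an unadjusted p under 0.05, against 1506 of the 17421 genes tested. In wider lists of the same pathways, Crls1 and Dgkb passed among 43 glycerophospholipid genes and Me1 among 19 fatty acid genes, all lower in F2. Dgkb, the neuronal diacylglycerol kinase beta, had 186 and 203 CPM in F1 and 148 and 132 CPM in F2, with 122 and 128 CPM in WT (log2 fold change -0.48 ± 0.12, q = 0.00873). Its call was lost in each of the 4 leave-one-out fits, with q between 0.0142 and 0.342. Called lipid genes outside the lists lay in both directions. Pla2g2f was higher, with 0.693 and 0.615 CPM in F1 and 1.35 and 5.09 CPM in F2, with 2.35 and 1.23 CPM in WT (log2 fold change 2.29 ± 0.53, q = 0.00479), with F2 replicates that differed several-fold, and lost its call without F1 replicate 1 (q = 0.0863), F1 replicate 2 (q = 0.0716) or F2 replicate 2 (q = 0.668). Pip4k2c, a kinase of phosphatidylinositol phosphates, was lower (133 and 139 CPM in F1 and 93.6 and 97.2 CPM in F2, log2 fold change -0.51 ± 0.12, q = 0.00332) and lost its call in each of the 4 leave-one-out fits (q between 0.0136 and 0.334). Lpl, lipoprotein lipase, was lower, with 194 and 169 CPM in F1 and 84.5 and 112 CPM in F2, with 134 and 148 CPM in WT (log2 fold change -0.89 ± 0.14, q = 7.9e-07). Lpl missed the threshold without F2 replicate 1 (q = 0.0115). None of 38 genes of ceramide and sphingolipid metabolism passed.

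**Figure D4:**
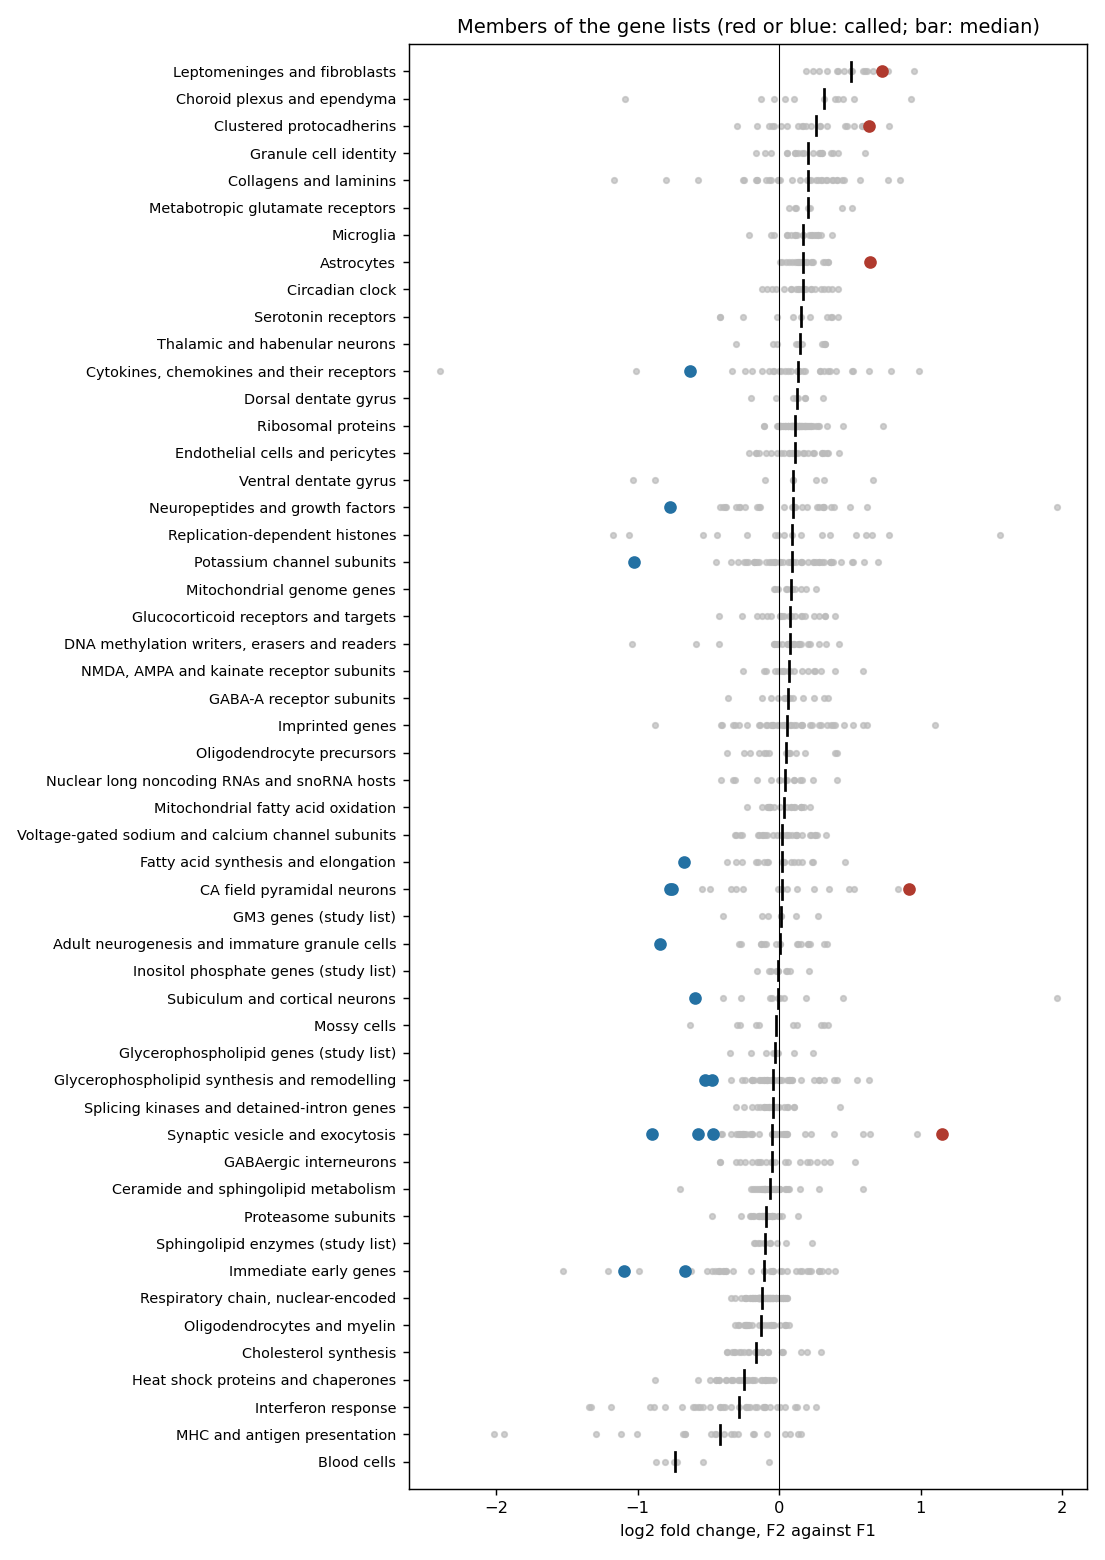
Log2 fold change of each tested member (points) of the 52 gene lists, F2 against F1, ordered by the list median (black bar). Called members are red where higher and blue where lower in F2; 39 lists have none, and the medians run from -0.73 for blood cells to 0.51 for leptomeninges and fibroblasts.

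Genes with a near-identical protein-coding copy elsewhere in the genome were frequent among the calls. Only protein-coding transcripts were searched for copies. A copy of at least 90% identity over at least 50% of the transcript was found for 22 of the 126 called genes with a known transcript (17.5%), against 6.95% of tested genes. It was found for 19.6% of the higher and 16% of the lower genes. Reads that matched several places were not counted, so the counts of such genes rest on the stretches that differ from their copies. Among the 13 distinct tested copies, only Gm10718 passed the test itself.

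Gm8822 and Gm5148, the 2 genes that the quasi-likelihood test also called, show both kinds. Gm5148, a protein-coding gene at chr3:37613112-37623412, minus strand (NCBIM37), without such a copy, had 1.29 and 1 CPM in F1 and 9.2 and 7.42 CPM in F2, with 9.8 and 11.1 CPM in WT (log2 fold change 2.86 ± 0.27, q = 7.99e-24). Gm8822, a pseudogene at chrX:79065723-79068069, minus strand, had 4.13 and 4.73 CPM in F1 and 14.1 and 16.1 CPM in F2, with 23.3 and 22.7 CPM in WT (log2 fold change 1.77 ± 0.18, q = 6.74e-18). Both were lowest in F1 by a wide margin. Gm8822 is 98.8% identical to Actr3, the ARP3 subunit of the actin-nucleating ARP2/3 complex, and 47.2% of its windows of 50 bases, the length of a read, do not occur in Actr3. Actr3 itself had 237 and 259 CPM in F1 and 287 and 255 CPM in F2 and did not pass (log2 fold change 0.13 ± 0.12, q = 0.919). The stretch of 60 bases shown was chosen for the most differences within the aligned coding sequence, so it is less alike than the pair as a whole. It lies at chrX:79067131-79067190 in Gm8822 and chr1:127294042-127294101 in the coding sequence of Actr3, both on the minus strand. The capitals mark the differing bases.
Gm8822: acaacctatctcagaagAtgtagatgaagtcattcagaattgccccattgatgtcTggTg
Actr3: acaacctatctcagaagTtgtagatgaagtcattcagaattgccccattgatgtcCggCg

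Gm6166 is a pseudogene of Fabp5, the epidermal fatty acid binding protein, with 99% identity. It had 8.95 and 7.35 CPM in F1 and 19.7 and 18.1 CPM in F2, with 18.9 and 24.8 CPM in WT (log2 fold change 1.21 ± 0.19, q = 2.17e-07), again lowest in F1, while Fabp5 had 60.5 and 52.6 CPM in F1 and 45.2 and 48.1 CPM in F2 (log2 fold change -0.28 ± 0.14, q = 0.605). The sequences differ at 1 of the first 60 bases of the reading frame, at chr9:57331770-57331829 and chr3:10012640-10012699, both on the plus strand. Capitals mark the differing base.
Gm6166: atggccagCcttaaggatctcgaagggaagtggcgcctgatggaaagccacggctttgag
Fabp5: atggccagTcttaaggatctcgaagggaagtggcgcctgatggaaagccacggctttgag

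The same was seen for other pseudogenes called higher in F2. Rpl19-ps12 had 0 reads in both F1 libraries and 10 reads in each F2 library, which makes it at least 3.8-fold higher against a floor of 3 reads per F1 library, while its parent Rpl19, a ribosomal protein gene, had 139.9 and 123 CPM in F1 and 137 and 150.1 CPM in F2. Rps19-ps7, Gm12906, Gm5514 and Gm14150 had log2 fold changes of 1.86, 2.27, 1.65 and 2.12, and their parents Rps19, Tomm22, Ldhb and Tuba1b of 0.10, -0.06, 0.08 and -0.18. None of these parents passed. Without F2 replicate 1 the calls of Rpl19-ps12, Rps19-ps7, Gm12906, Gm5514 and Gm14150 were lost (q = 0.0115, 0.12, 0.229, 0.334 and 0.476), and each was also lost without at least 1 other library. Tuba1c, an alpha-tubulin gene that shares 99.4% identity with Tuba1b, had 0.528 and 0.81 CPM in F1 and 7.4 and 4.57 CPM in F2, with 3.88 and 11.9 CPM in WT (log2 fold change 3.15 ± 0.47, q = 1.76e-07). Gm10654, for which no protein-coding copy was found, also had 0 reads in both F1 libraries and was at least 6.64-fold higher.

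A family of satellite-like genes fell in F2. Gm10800 and Gm10801 lie 2463 bases apart on chromosome 2, and Gm16869, Gm10717, Gm10718 and Gm10720 overlap or adjoin each other near the start of chromosome 9. All 6 were lower in F2. Gm10800, at chr2:98506704-98507458, minus strand, had 66.2 and 48.5 CPM in F1 and 6.84 and 11.2 CPM in F2, with 57.9 and 140.2 CPM in WT (log2 fold change -2.67 ± 0.32, q = 1.55e-11). Gm16869, a long noncoding RNA gene, had 52.5 and 38.6 CPM in F1 and 5.76 and 9.17 CPM in F2, with 42.9 and 104 CPM in WT (log2 fold change -2.61 ± 0.32, q = 3.84e-11). Both F2 libraries were below the other 4, and the WT libraries differed from each other more than 2-fold. Gm10718 had 5.05 and 3.34 CPM in F1 and 0.636 and 0.594 CPM in F2 (log2 fold change -2.76 ± 0.46, q = 2.03e-06). Genes of this family are annotated within copies of the major satellite, the tandem repeat of mouse pericentromeric heterochromatin. Of the windows of 50 bases in Gm10800, 90.8% do not occur in Gm10718. The 60 bases given were chosen for the most differences among stretches annotated as coding and aligned without gaps. They lie at chr2:98507138-98507197 on the minus strand and chr9:3023791-3023850 on the plus strand, with differing bases in capitals.
Gm10800: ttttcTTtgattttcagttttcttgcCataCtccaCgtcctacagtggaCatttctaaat
Gm10718: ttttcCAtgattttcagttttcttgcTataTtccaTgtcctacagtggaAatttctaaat
The assembly holds few of the many copies of this repeat, so these counts cannot be assigned to single loci. Gm10800, Gm10801, Gm16869 and Gm10718 kept their calls in each leave-one-out fit.

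In some copy genes the libraries of a group differed widely. Gm12033 had 16.6 and 44.2 CPM in F1 and 0.0374 and 0.0742 CPM in F2, with 19.9 and 0.0352 CPM in WT (q = 7.11e-05). F2 rested on 1 and 2 reads, a ratio of F1 to F2 of 546 with a 95% exact interval of 187 to 2652 that covers counting error only. It was thus near 0 in 3 of the 6 libraries, including 1 of WT, and lost its call without F2 replicate 1 (q = 0.0847) or F2 replicate 2 (q = 0.0273). Its copy Gm5559 was not tested. Tpm3-rs7, a related sequence of tropomyosin 3, had 41.3 and 30.3 CPM in F1 and 14.1 and 2.38 CPM in F2, with 1.88 and 1.9 CPM in WT (log2 fold change -2.12 ± 0.49, q = 0.00568), with F2 replicates that differed several-fold, while Tpm3 had 61.6 and 79.4 CPM in F1 and 90.2 and 75.9 CPM in F2. Without F1 replicate 1 Tpm3-rs7 was not called (q = 0.107). Tagap, a GTPase-activating protein of T cells with the copy Tagap1, had 2.67 and 3.79 CPM in F1 and 0.112 and 0.483 CPM in F2, with 0.441 and 0.774 CPM in WT (log2 fold change -3.42 ± 0.49, q = 3.67e-10) and kept its call in each leave-one-out fit.

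**Figure D5:**
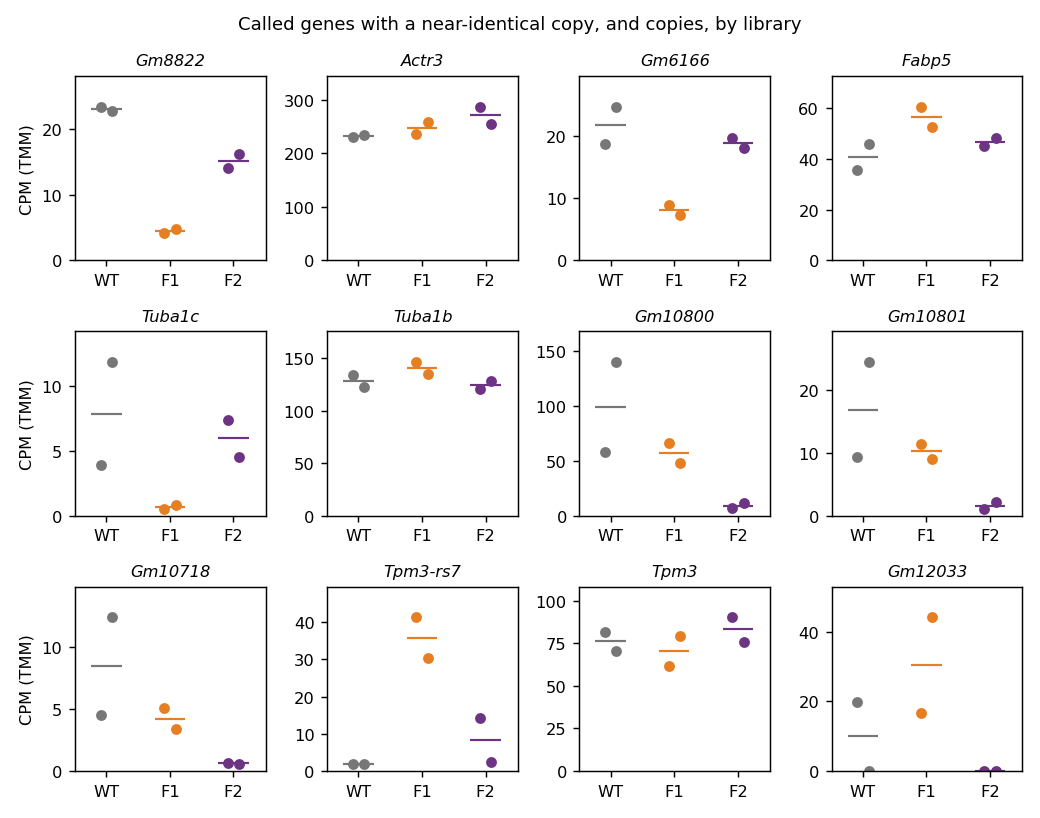
CPM of 12 genes with near-identical copies or that are such copies, by library, each panel with its own axis from 0. Gm8822, Gm6166 and Tuba1c are lowest in F1 while Actr3, Fabp5 and Tuba1b show no called difference, and Gm10800, Gm10801 and Gm10718 are lowest in F2.

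The WT libraries, bred apart, entered the test only through the filter on reads, the scaling and the estimate of spread. They lay nearer to F2 than to F1 for 89 of the 129 called genes (69%), against 49.3% of all tested genes. This held for 42 of the 53 genes higher in F2 and 47 of the 76 lower genes. Both WT libraries lay between the groups for 39, above all 4 F1 and F2 libraries for 21, of which 18 were higher in F2, and below all 4 for 8, each lower in F2. Over all 17421 tested genes these counts were 289, 4126 and 3658. A place between the groups needs F1 and F2 libraries that do not overlap, as for all called genes. For Sv2b, Mas1, Chl1 and Gm5148 the F1 libraries stood apart from the other 4. For Pvrl3 and Slc9a4 the WT libraries lay between the generations.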

How the data were processed

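RNA-Seq counts of 6 libraries were analysed, 2 each from the ventral dentate granule cell layer of WT, F1 and F2 males. The authors made polyA libraries, sequenced 50 base single-end reads, aligned them to mm9 (NCBIM37) with TopHat and deposited raw counts, not normalized, which HTSeq made for each gene under its intersection-strict setting. The submitters' processing notes list TopHat2 2.0.2 and Bowtie 1.0.0, whereas the study's methods name a different TopHat version. Reads with several alignments, reads outside annotated exons and reads shared by genes were not counted. Of the uniquely aligned reads, 12.25% to 17.43% in F1 and F2 lay outside genes. Whether counting used strand is not given in the sources used here, so overlapping genes on opposite strands may not be told apart. The bisulfite samples of the series were not analysed here.

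Groups and replicate numbers came from the labels. Lines that name no gene were left out of library sizes. Genes with too few reads were removed with filterByExpr and TMM factors were computed, both over the libraries of all 3 groups. F2 was set against F1 by the exact test in edgeR 4.0.16 (R 4.3.3). Tagwise dispersions, shrunk to the common value, were estimated from the libraries of all 3 groups. The common dispersion was 0.0113, a coefficient of variation of 10.6%. A gene was called at q under 0.01 after Benjamini-Hochberg adjustment over all 17421 genes tested. Depth was 26358165 to 33727936 counted reads per library, so the number of libraries limits the precision more than counting does. Replicates were separate libraries, with a chi-square over its degrees of freedom of 14.3 in F1 and 17.3 in F2. In a self-test on simulated counts with gene-wise dispersions the fold changes were recovered, but both the exact and the quasi-likelihood test made a larger share of false calls than the threshold allows, so q is nominal.

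Genes were named if among the 15 largest changes in each direction that averaged 50 or more counts, with F1 and F2 libraries that did not overlap, if called and on a list, if called by the quasi-likelihood test, or if among up to 4 members of a list with the highest level or largest change, with Htr1a in addition. The members, lists and tests were chosen with earlier results of these data known. Copies were sought with BLAST+ 2.17.0 among annotated protein-coding transcripts of GENCODE on NCBIM37. The printed sequences were read from annotated transcripts of the same build. As alternatives, the quasi-likelihood and the likelihood-ratio test of edgeR were run, either with replicate number as a blocking term or not, together with DESeq2 1.42.0, other normalizations, filters and thresholds, and each library left out in turn. Some genes covered by the naming rule are not reported here, and the counts of genes include them.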

Additional observations from a re-analysis of the deposited data

How the results depend on the processing

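No called gene changed sign under any of the alternatives tried. The quasi-likelihood test called 2 genes (2 higher and 0 lower in F2, with 1570 at an unadjusted p under 0.05), and 9 with the replicate block (4 higher and 5 lower). The likelihood-ratio test called 133 genes, and 117 once the replicate block was added, which kept 106 of the 129. The labels do not say that equal numbers share a litter or day. The differences between replicates of F1 and F2 correlated at -0.182 over genes, and with the F2 numbers crossed, a pairing chosen after seeing the data, the block called 233 genes (94 higher, 139 lower). At q under 0.05 there were 230 (88 higher, 142 lower). DESeq2 called 103 and kept 98. Leaving out 1 F1, F2 or WT library gave 52 to 223 calls, 36 to 112 higher and 16 to 111 lower, and 28 of the 129 genes held in all 4 fits that left out an F1 or F2 library. In those fits the lone library of a group is assumed to vary like the other groups. The lowest counts came without F2 replicate 1 and the highest without F1 replicate 2. The other normalizations and filters and the dispersion from F1 and F2 alone gave 113 to 132 calls, and offsets for GC content and exon length, added after seeing the data, gave 160, or 148 with the replicate block. Without genes that have a near-identical copy, also added later, 107 genes were called, 43 higher and 64 lower. The causes of these differences were not tested. With 2 libraries per group, genes that change by less than the spread between libraries could not be called, and genes at a few reads are uncertain.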

Other observations

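In 8 of the 129 called genes both WT libraries lay below all F1 and F2 libraries, against 3658 of the 17421 tested genes. Each of the 8 was lower in F2 than in F1. Cyth4, a nucleotide exchange factor for ARF GTPases, had 35.8 and 41.7 CPM in F1 and 22.1 and 27 CPM in F2, with 8.12 and 6.86 CPM in WT. Cdhr1, a cadherin-related protein best known from photoreceptors, had 15.1 and 23.6 CPM in F1 and 10.5 and 9.69 CPM in F2, with 1.12 and 1.23 CPM in WT. Upp2, a uridine phosphorylase, had 25 and 24.2 CPM in F1 and 15.1 and 14.4 CPM in F2, with 6.59 and 7.01 CPM in WT. F2 lay between F1 and WT in each of these, and the others were Tpm3-rs7, Stbd1, Gm15772, Neto1 and Dgkb. Cyth4 lost its call without F1 replicate 2 (q = 0.093), F2 replicate 1 (q = 0.728) or F2 replicate 2 (q = 0.0196), Cdhr1 without F1 replicate 2 (q = 0.158), F2 replicate 1 (q = 0.218) or F2 replicate 2 (q = 0.209) and Upp2 without F1 replicate 1 (q = 0.0127), F2 replicate 1 (q = 0.0906) or F2 replicate 2 (q = 0.0966). Without F2 replicate 2 (q = 0.0145) that of Gm15772 was lost. Gm15772, a pseudogene of the ribosomal protein gene Rpl26, had 41.9 and 57.8 CPM in F1 and 26.8 and 25 CPM in F2, with 10.9 and 9.96 CPM in WT, while Rpl26 had 84.2 and 35.5 CPM in F1 and 91.5 and 108 CPM in F2 with F1 replicates that differed more than 2-fold.

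On the other side, Metap1d, a mitochondrial methionine aminopeptidase, had 12.5 and 13.4 CPM in F1 and 19.2 and 28.5 CPM in F2, with 45.7 and 46.6 CPM in WT (log2 fold change 0.88 ± 0.18, q = 0.00037), so that F2 stood between F1 and WT as for Twist1 and Gm8822. The call of Metap1d was lost without F1 replicate 1 (q = 0.0229) and without F2 replicate 2 (q = 0.148). The symbol 7SK, which pools 331 annotated genes of the small nuclear RNA that holds the elongation factor P-TEFb inactive, had 18.4 and 18.4 CPM in F1 and 26.6 and 40.5 CPM in F2, with 31.3 and 34.4 CPM in WT (log2 fold change 0.87 ± 0.18, q = 0.000677), in libraries made from polyA RNA. Its call was lost without F1 replicate 1 (q = 0.0222), F1 replicate 2 (q = 0.0134) or F2 replicate 2 (q = 0.2).

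Imprinted genes, expressed from the allele of 1 parent, gave no call among 40 tested (median log2 fold change 0.06), and neither did 25 genes that write, erase or read DNA methylation (median 0.08) or 22 glucocorticoid receptor and target genes (median 0.08). Il34, a ligand of the CSF1 receptor that sustains microglia, was the only called gene of 32 cytokines, chemokines and receptors. It was lower in F2, with 52.9 and 52.3 CPM in F1 and 28.5 and 39.6 CPM in F2, with 49.1 and 42.7 CPM in WT (log2 fold change -0.63 ± 0.16, q = 0.00915), and lost its call without F1 replicate 1 (q = 0.0793), F1 replicate 2 (q = 0.0371) or F2 replicate 1 (q = 0.922). The 20 microglial markers summed to 309.7 to 362 CPM in F1, 355 to 404 CPM in F2 and 254 to 259 CPM in WT, and none passed. Of these markers 17 were positive, with a median of 0.17. Both F2 libraries were above both F1 libraries for 8 of them, against 19.4% of all tested genes, and below for 1.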
